A study of Mus musculus with 9 samples.

Results

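Zmym1 and Sfpq are neighbouring genes on chromosome 4 of the mouse that are transcribed towards each other, and their counts were followed in uterine tissue after mechanical injury. They are 2 of the 55228 features counted in these libraries and were looked up by symbol. Zmym1 was selected on its own counts, since it was raised alike in the injury and CRC groups, and Sfpq was selected as its convergent neighbour. The levels of both genes in the 3 groups are therefore given as a description without a test.

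RNA was sequenced from the uterus of female wild-type (WT) C57BL mice 8 weeks old, with 3 mice and 3 libraries in each of 3 groups, all collected on day 7. Sham mice had the operation alone. In the injury group the lumen was damaged with a 27-gauge needle over 10 withdrawals, and 50 μL of PBS was given, so that injury and PBS cannot be told apart. The CRC group had the same injury followed by 50 μL holding 1000000 CRCs, endometrial epithelial cells kept in culture by conditional reprogramming.

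Zmym1 encodes a protein with MYM-type zinc fingers, a fold shared by a small family in which Zmym2 and Zmym3 are known partners of the histone demethylase Lsd1 and its corepressor CoREST. Sfpq encodes a splicing factor rich in proline and glutamine that pairs with Nono, binds nascent RNA and is needed to build paraspeckles, nuclear bodies that form on the long non-coding RNA Neat1. Sfpq also acts in transcription and in the repair of broken DNA ends, while the role of Zmym1 in the uterus is little known.

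Features held between 280886 and 327883 counts per library, 0.776% to 0.898% of all records, and 87.3% to 91.6% of records lay in no feature. Whether the counting used strand is not given in the sources used here, so each value is the count on the named feature, and without that setting reads of a gene and of a feature opposite to it cannot be told apart. Features with exons opposite to those of another feature made up 16.6% of the features that could be placed in the annotation and held 79.6% of their counts. Actb, a gene used in every cell, held 6 counts over all 9 libraries. Malat1 held 115 and Gm37376, opposite to it, 78001, and Tagln held 159 and Gm48529, opposite to it, 130075. It was the other way on Rbm4b, with 11303 counts and 709 on Gm37206, opposite to it. From which strand the counts on Zmym1 came was not tested. In bulk tissue, fewer cells of a type and less RNA per cell cannot be told apart.

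The libraries labelled CRC stood apart from the others in scaling. TMM factors, which correct library size for the balance of features, were 0.850 to 0.948 in sham, 0.991 to 1.01 in injury and 1.12 to 1.14 in CRC. CPM below is the count scaled by these factors to a common library size, at 3.05 to 3.70 CPM per count. Of 3722 features with enough counts to test, 746 passed an adjusted p-value of 0.05 between CRC and sham, 481 between CRC and injury and 16 between injury and sham.

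Counts on Zmym1 were 65, 46 and 39 in the sham libraries, 135, 161 and 165 in the injury libraries and 184, 199 and 164 in the CRC libraries. In CPM these were 211, 170 and 139 for sham, 468, 566 and 579 for injury and 560, 612 and 500 for CRC. All 6 libraries from injured uteri, with or without cells, lay above all 3 sham libraries, and the injury and CRC libraries overlapped each other. Mean CPM ± SD (n = 3) was 174 ± 35.8 for sham, 538 ± 60.4 for injury and 557 ± 55.7 for CRC. The lowest injury library was 2.22 times the highest sham library, and the lowest CRC library was 2.37 times it. The fitted log2 fold change was 1.63 (standard error 0.21) for injury against sham, 1.68 (standard error 0.21) for CRC against sham and 0.05 (standard error 0.19) for CRC against injury. The first and the second of these share the sham libraries and are not separate evidence.

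The coefficient of variation of Zmym1 in CPM was 20.6% in sham, 11.2% in injury and 10.0% in CRC, where counting error alone gives 14.1%, 8.07% and 7.41%, and with 3 mice in each group no excess is read from these values. Zmym1 held 129 counts per library on average, rank 373 of the 3722 features tested. Per 1000000 records, those outside features included, Zmym1 held 1.66, 1.24 and 1.07 for sham, 3.82, 4.45 and 4.85 for injury and 5.28, 5.61 and 4.70 for CRC. On this scale too the sham libraries were the lowest and the injury and CRC libraries overlapped. The scaling moved its size in CRC against sham, with a log2 fold change of 2.02 on feature totals alone and 1.97 on all records, settings under which the median of all features moved up by 0.35 and 0.29.

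Counts on Sfpq were 2, 2 and 7 for sham, 4, 2 and 2 for injury and 1, 1 and 3 for CRC, 24 in all. Every library held at least 1 count and none more than 7, and the groups overlapped in each comparison. Sfpq had too few counts for the filter and was not fitted. Mean CPM ± SD (n = 3) was 13.0 ± 10.5 for sham, 9.31 ± 3.96 for injury and 5.09 ± 3.52 for CRC. The ratio of summed counts, scaled by library size, was 0.728 for injury against sham (95% exact interval 0.254 to 1.99), 0.397 for CRC against sham (0.108 to 1.24) and 0.546 for CRC against injury (0.141 to 1.89). These intervals cover counting error only and are wide at this depth. Sham replicate 3 held 7 of the 11 sham counts. Without it the log2 ratio of mean CPM of injury against sham was 0.42 in place of -0.48, and that of CRC against sham was -0.47 in place of -1.35.

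Of the pair, 1 gene had no overlap between injury and sham and between CRC and sham, and 0 had none between CRC and injury. Over all features tested the share without overlap was 15.7% for injury against sham, 35.5% for CRC against sham and 33.5% for CRC against injury, and since Zmym1 was chosen on these groups nothing is read from its place among them. The order of mean CPM on Zmym1 was CRC, injury, sham. Zmym1 was selected as raised alike in injury and CRC, so nothing is read from how close these groups lie. On Sfpq the order of mean CPM was sham, injury, CRC, and the groups overlapped. The log2 ratio of mean CPM was -0.48 for injury against sham and -0.87 for CRC against injury. The spread between mice was 0.88 in log2 CPM, and scaled without a filter the second ratio was -0.91. Per kilobase of exon Zmym1 stood at 41.7 CPM in sham, 129 in injury and 134 in CRC, and Sfpq at 2.74, 1.96 and 1.07. On these GENCODE features Zmym1 was the more abundant of the pair in every group.

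**Figure D1:**
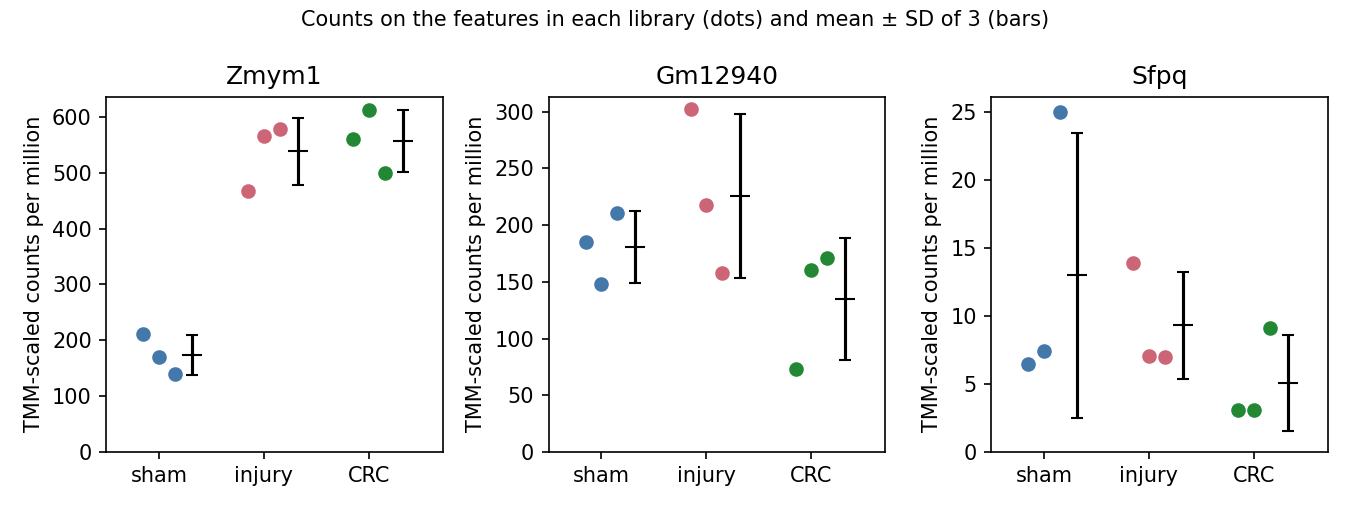
TMM-scaled CPM on Zmym1, Gm12940 and Sfpq in each library, with dots for the 3 libraries of a group and bars for their mean ± SD. On Zmym1 the sham libraries lie between 139 and 211 and all others between 468 and 612, while on Gm12940 and Sfpq the groups overlap.

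In the GENCODE M21 annotation of GRCm38, Sfpq (ENSMUSG00000028820.13) lies on the plus strand of chromosome 4 from 127021324 to 127037013, and Zmym1 (ENSMUSG00000043872.14) on the minus strand from 127047094 to 127061152. The pair lies tail to tail with 10080 bases between the annotated ends, and no exon of either overlaps the other. The space is bridged by Gm12940 (ENSMUSG00000085334.7), a processed transcript on the plus strand from 127033731 to 127049398. Gm12940 shares 216 exon bases with Sfpq on the same strand. Its last exon of 1709 bases, from 127047690 to 127049398, lies opposite the last exon of Zmym1 and covers 41.0% of the exon bases of Zmym1 and 63.8% of its own. RefSeq on GRCm38.p6 lists Gm12940 as a synonym of Sfpq and carries Sfpq on to 127051101, so that the spans of Sfpq and Zmym1 overlap there by 4008 bases.

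**Figure D2:**
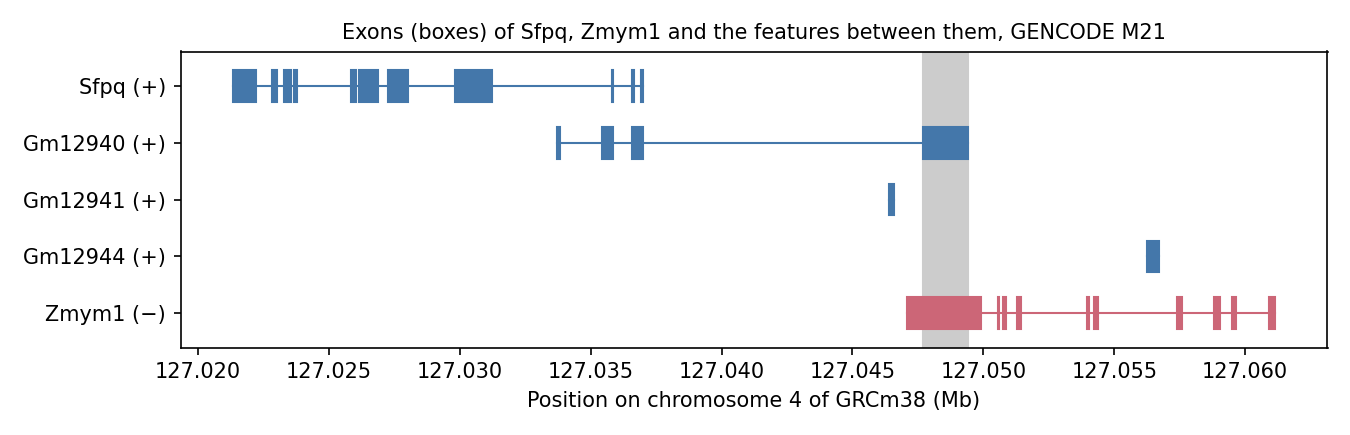
Positions on chromosome 4 of GRCm38 in Mb, with boxes for the exons and lines for the spans of Sfpq, Zmym1 and the features between and within them, blue for the plus and red for the minus strand. The grey band marks the 1709 bases where the last exon of Gm12940 lies opposite the last exon of Zmym1.

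The sequences below come from the GENCODE M21 transcripts and are shown because they mark where a read could belong to either strand. The first is the end of the coding sequence of Zmym1, from 127047749 down to 127047642 on the minus strand, with the 60 bases shared with Gm12940 in capitals and the 48 bases that follow, up to the stop codon TGA, in lower case. The next is the start of the last exon of Gm12940, from 127047690 to 127047749 on the plus strand, all in capitals because all of it is shared, and it is the reverse complement of the capitals above it. The last is the splice junction of Gm12940 across an intron of 11040 bases, 15 bases on each side, with the last exon in capitals.
Zmym1 coding end: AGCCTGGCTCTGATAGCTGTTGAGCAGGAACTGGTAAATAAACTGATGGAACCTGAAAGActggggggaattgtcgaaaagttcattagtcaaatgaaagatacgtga
Gm12940 start of last exon: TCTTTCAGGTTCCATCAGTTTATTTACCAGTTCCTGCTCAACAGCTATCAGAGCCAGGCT
Gm12940 last junction: tgacaaagactctagTCTTTCAGGTTCCAT

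Counts on Gm12940 were 57, 40 and 59 for sham, 87, 62 and 45 for injury and 24, 52 and 56 for CRC. The groups overlapped in every comparison, with the highest count in injury replicate 1 and the lowest in CRC replicate 1. Mean CPM ± SD (n = 3) was 181 ± 31.6 for sham, 226 ± 72.3 for injury and 135 ± 53.5 for CRC. Gm12940 passed the threshold in 0 of 3 comparisons by edgeR with Benjamini-Hochberg adjustment, with log2 fold changes of 0.32 (standard error 0.30, adjusted p = 0.707) for injury against sham, -0.43 (0.31, adjusted p = 0.343) for CRC against sham and -0.75 (0.30, adjusted p = 0.108) for CRC against injury. In 2 of 18 other settings the last of these passed, with an adjusted p from edgeR of 0.0351 in a fit of the 2 groups alone and of 0.0434 without sham replicate 2, in a range of 0.0351 to 0.471.

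The number of Zmym1 counts for each Gm12940 count was 1.14, 1.15 and 0.661 for sham, 1.55, 2.60 and 3.67 for injury and 7.67, 3.83 and 2.93 for CRC. This ratio was below 1.2 in every sham library and above 1.5 in every other library, and the injury and CRC libraries overlapped. Since Zmym1 was selected on these groups, nothing is read from this ratio. Counted together as a single gene, as RefSeq draws them, Sfpq and Gm12940 held 59, 42 and 66 counts in the sham libraries, 91, 64 and 47 in those of injury and 25, 53 and 59 in CRC, a sum chosen after the data were seen. The groups overlapped on the sum as well, with means of 194 ± 40.4, 235 ± 75.9 and 140 ± 55.7 CPM (SD, n = 3). In sham this mean lay above the 174 CPM on Zmym1. Per kilobase, over the 7207 exon bases of both features, the sum stood at 27.0 CPM in sham, 32.6 in injury and 19.4 in CRC, below Zmym1 in every group, while Gm12940 alone stood at 67.6 in sham, above the 41.7 of Zmym1. The order of level in sham thus depends on the features counted and on scaling by length.

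Records that the counting left as ambiguous between features are not assigned to any of them. They numbered 2571, 28622 and 24851 for sham, 6470, 5832 and 3506 for injury and 2005, 1751 and 4269 for CRC. These were 0.00493% to 0.0773% of all records. Without the strand setting, it is not known whether an overlap on opposite strands, as of Zmym1 and Gm12940, made records ambiguous. Sham replicates 2 and 3 stood far above the other 7 libraries, and sham replicate 1 lay within the range of the injured uteri. The features from which these records came are not listed, and their part in the Zmym1 difference was not tested.

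Within 250 kb of the pair the annotation places 19 counted features, and Zmym1 held 57.1% of all counts in this window. Of these features 10 were at 0 in all 9 libraries, and by counting error alone 0 in all 9 is compatible with as many as 3 counts in their sum, which is 1.11 CPM on average. Another 4 held between 1 and 9 counts in all. Those at 0 include Zmym6, the next protein-coding gene beyond the start of Zmym1 and a member of its family, with Tmem35b after it. On the other side lie Zmym4, a further member of the family, and AU040320, whose tails share 67 exon bases on opposite strands.

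Counts on Zmym4 were 7, 3 and 15 for sham, 8, 8 and 8 for injury and 16, 8 and 22 for CRC. The groups overlapped, and its mean per kilobase of exon, 3.58, 3.44 and 5.75 CPM, was below that of Zmym1 in every group. Its log2 fold change was -0.06 (standard error 0.62) for injury against sham and 0.68 (standard error 0.58) for CRC against sham, where that of Zmym1 was 1.63 and 1.68. With 1 library left out these values of Zmym4 ran from -0.43 to 0.69 and from 0.28 to 1.41, highest without sham replicate 3 and lowest without sham replicate 2. AU040320 held 37, 15 and 15 counts in the sham libraries, 28, 24 and 26 in those of injury and 32, 28 and 49 in CRC, with log2 fold changes of 0.24 (standard error 0.37) and 0.52 (standard error 0.36), which ran from 0.03 to 0.74 and from 0.25 to 1.00 with 1 library left out and were highest without sham replicate 1. Neither neighbour passed the threshold in any of the 3 comparisons, with the smallest adjusted p at 0.321 by edgeR with Benjamini-Hochberg adjustment, and DESeq2, which gave neither an adjusted p for injury against sham, called neither in the other comparisons. On each of the 3 tested features around Zmym1, Gm12940 included, the groups overlapped in every comparison, and the difference between their changes and that of Zmym1 was not tested.

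The profile of Zmym1 across the 9 libraries was compared with those of 939 other tested features holding 50 counts or more per library on average, as the root mean square difference of log2 CPM after each profile was centred on its mean. The most similar were Gm50431 at 0.255, Gm38162 at 0.393, Mterf4 at 0.404, Kcnmb1 at 0.433 and Rpe at 0.441. On Gm50431, which could not be placed in the annotation used here, CPM was 130, 163 and 114 for sham, 288, 383 and 333 for injury and 326, 344 and 275 for CRC, and all sham libraries were below all others. Mterf4, which encodes a mitochondrial protein of the transcription termination factor family, stood at 1914, 973 and 1534 CPM for sham, 2249, 3502 and 3151 for injury and 2397, 3230 and 2583 for CRC, with the same separation.
Kcnmb1, a subunit of the large-conductance potassium channel of smooth muscle, and Rpe, an enzyme of the pentose phosphate pathway, lay higher in all CRC than in all injury libraries, with fitted log2 differences of 0.90 and 0.53 where that of Zmym1 was 0.05. On Gm38162 and Kcnmb1 the injury and sham libraries overlapped, while on Rpe all injury libraries lay above all sham libraries. Gm38162 and Rpe both lie on chromosome 1 opposite exons of Kansl1l. Since these features were picked for their likeness they carry no test here.

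**Figure D3:**
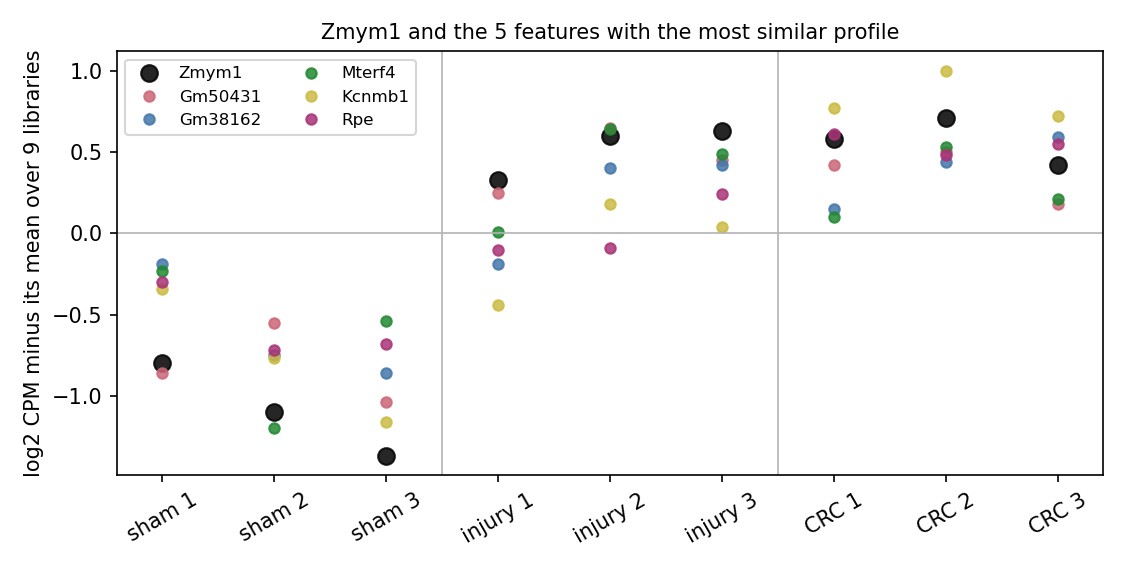
Log2 CPM of Zmym1 and of the 5 features most like it, each minus its own mean over the 9 libraries, by library. Zmym1 lies between -1.37 and -0.80 in sham and between 0.33 and 0.71 in all other libraries.

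The partners of Sfpq in paraspeckles also held few counts. Nono, its usual partner, held 16 counts over all 9 libraries, Pspc1, the third protein of their family, 14, and Neat1 16. Of the 36 listed genes of paraspeckle proteins and RNAs besides Sfpq, 18 held under 10 counts in all and 6 were tested. Between injury and sham 0 of the 6 passed the threshold in edgeR's quasi-likelihood test, where 0.430% of all features passed. At an unadjusted p under 0.05 were 3 of the 6 and 12.6% of all features, and 0 were called by DESeq2, which gave an adjusted p for 1 of them. Their median log2 fold change was 0.25, beside -0.01 over all features. Without sham replicate 1, where 154 of all features passed, 1 of the paraspeckle genes did. This was Rbm4b (log2 fold change 0.45, adjusted p = 0.0376, edgeR), which stood at 0.34 (standard error 0.13, adjusted p = 0.265, edgeR) with all libraries.
Between CRC and injury 1 of the 6 rose, where 12.9% of all features passed, and this was Akap8l (log2 fold change 1.73, standard error 0.53, adjusted p = 0.0256, edgeR with Benjamini-Hochberg adjustment), higher in 3 of 3 libraries. Its counts were 14, 17 and 12 in the sham libraries, 3, 4 and 8 in those of injury and 23, 18 and 17 in CRC, so that injury was the lowest group and CRC overlapped sham. Against sham its log2 fold change was -1.50 (standard error 0.54, adjusted p = 0.212, edgeR) in injury and 0.23 (standard error 0.46, adjusted p = 0.779, edgeR) in CRC. The call passed in 10 of 17 other settings. It did not pass in DESeq2, without a filter or without injury replicate 1 or 2 or any of the CRC replicates. Over all 17 settings its adjusted p from edgeR or DESeq2 lay between 0.00994 and 0.139. The median of the 6 was 0.34 for CRC against sham and 0.25 for CRC against injury, beside 0.03 and 0.01 over all features.

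Of 24 other splicing factors and splicing regulators, 13 held under 10 counts and 5 were tested, Srsf2, Srsf4, Srsf11, Snrnp70 and Son. In each comparison 0 of these 5 passed the threshold in edgeR's quasi-likelihood test, 0 had an unadjusted p under 0.05, where 12.6%, 32.1% and 24.7% of all features did, and DESeq2 called 0, though for injury against sham it gave an adjusted p for 1 alone. Their medians of 0.03, 0.07 and 0.14 lay beside -0.01, 0.03 and 0.01 over all features. Mettl23, opposite Srsf2, fell in CRC against sham with a log2 fold change of -1.78 (standard error 0.16, lower in 3 of 3 libraries, adjusted p = 2.34e-09, edgeR with Benjamini-Hochberg adjustment). In that comparison, where 20.0% of all features passed, 4 of the 5 tested features opposite splicing genes fell and 2 of the 8 opposite paraspeckle genes, of which Mettl23, Plppr3 and 4933440N22Rik passed in all 18 other settings. Among those that fell, Gm17134 and Plppr3 both lie opposite Ptbp1, and 4933440N22Rik and Gm43863 both lie opposite Hnrnpf. They do not stand for separate genes of the lists. Sfpq has no exon opposite it in GENCODE M21.

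In the family of Zmym1, Zmym2, Zmym5 and Zmym6 were at 0 in all libraries and Zmym3 held 2 counts, so that besides Zmym1 only Zmym4 was tested. Of 10 genes of the Lsd1 and CoREST complex, with which members of the family associate, 4 held under 10 counts and 2 were tested. Kdm1a, which encodes Lsd1, held between 27 and 83 counts per library and Gse1 between 8 and 21. In edgeR's quasi-likelihood test 0 of the 2 passed in any comparison, DESeq2 called 0, with an adjusted p for 1 alone in injury against sham, and 1 had an unadjusted p under 0.05, between CRC and sham, where 32.1% of all features did. At the adjusted threshold, over all features 0.430% passed for injury against sham, 20.0% for CRC against sham and 12.9% for CRC against injury. The median log2 fold changes of the 2 in this order were 0.04, -0.55 and -0.60, beside -0.01, 0.03 and 0.01 over all features. Of the 2 tested features opposite genes of this complex, 1 fell in CRC against injury and 0 passed in the other comparisons. This was Gins2, opposite Gse1 (log2 fold change -0.53, standard error 0.15, adjusted p = 0.0189, edgeR with Benjamini-Hochberg adjustment). It passed in 12 of 18 other settings. Of 7 genes of DNA end joining, in which Sfpq acts, 4 were at 0 in all libraries and 0 were tested. Of the receptors of the uterine hormones, Esr1, an oestrogen receptor, held 24 counts in all, and Pgr, the progesterone receptor, 67, 67 and 90 for sham, 57, 49 and 46 for injury and 90, 77 and 76 for CRC. Pgr did not pass the threshold between injury and sham (log2 fold change -0.56, standard error 0.24, lower in 3 of 3 libraries, adjusted p = 0.323, edgeR with Benjamini-Hochberg adjustment).

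Markers of the cell types of the uterus were counted on their own features and on those opposite to them. The 8 smooth muscle genes held 123, 151 and 137 counts in the sham libraries, 84, 95 and 90 in those of injury and 79, 76 and 102 in CRC, with Myh11 the most abundant at 459, and none was at 0. Sham libraries were the highest on this sum. In CRC against sham, where 20.0% of all features passed, 1 of the 3 tested genes fell, Myh11, which encodes the myosin heavy chain of smooth muscle (log2 fold change -1.24, standard error 0.30, lower in 3 of 3 libraries, adjusted p = 0.00299, edgeR with Benjamini-Hochberg adjustment), and it passed in all 18 other settings. Not all smooth muscle genes were lower in CRC. Lmod1 did not pass (log2 fold change 0.13, standard error 0.44, adjusted p = 0.872, edgeR). Tagln did not pass either (-1.13, standard error 0.42, adjusted p = 0.0528, edgeR). Mean CPM on Cnn1, with too few counts to be tested, was 11.9 in sham, 22.2 in injury and 23.5 in CRC. On Acta2, Des and Smtn it was lower in both other groups than in sham. The features opposite smooth muscle genes held 22033, 18205 and 18738 counts in the sham libraries, 15805, 15167 and 15508 in those of injury and 9683, 9138 and 9108 in CRC, most of them on Gm48529. On these the injury libraries lay between sham and CRC.
The 9 stromal genes held 39, 52 and 90 counts in the sham libraries, 36, 43 and 34 in those of injury and 43, 28 and 41 in CRC, with Hoxa11 the most abundant. Of these 3 were tested, and 2 fell in CRC against sham, where 20.0% of all features passed. They were the collagen genes Col1a1 (log2 fold change -2.74, standard error 0.66, lower in 3 of 3 libraries, adjusted p = 0.00323, edgeR with Benjamini-Hochberg adjustment) and Col3a1 (-1.93, standard error 0.60, lower in 3 of 3 libraries, adjusted p = 0.0219, edgeR). Both rest on few counts. Col1a1 held 10, 16 and 28 in sham and 3, 2 and 4 in CRC, and Col3a1 10, 23 and 14 in sham and 6, 4 and 4 in CRC. Col1a1 did not pass without sham replicate 3, and Col3a1 passed in 10 of 16 other settings and not in DESeq2. The other tested gene, Hoxa11, did not pass (log2 fold change -0.15, standard error 0.54, adjusted p = 0.889, edgeR). Not all stromal genes were lower in CRC, since on Hoxa10, with too few counts to be tested, the counts were 4, 0 and 0 in the sham libraries, 5, 1 and 2 in those of injury and 5, 9 and 6 in CRC, and in CPM all CRC libraries lay above all sham libraries. The features opposite stromal genes held 685, 964 and 722 counts in the sham libraries, 542, 547 and 621 in those of injury and 932, 752 and 932 in CRC, most of them on Hoxa11os. The 6 leukocyte genes held 66, 63 and 79, then 63, 49 and 62, then 45, 36 and 35 in the same order of groups, nearly all on Csf1r, with Ptprc, Adgre1, Lyz2 and Cd3e at 0. Csf1r, a receptor of macrophages and the only leukocyte gene tested, fell in CRC against sham, where 20.0% of all features passed (log2 fold change -1.04, standard error 0.26, lower in 3 of 3 libraries, adjusted p = 0.00431, edgeR with Benjamini-Hochberg adjustment). It passed in 17 of 18 other settings, though not on feature totals. Csf1r shares 873 exon bases with Hmgxb3 on the opposite strand, which held 14 counts in all. From which strand the counts on Csf1r came was not tested.
The 10 epithelial genes, those of the transplanted cell type, held 18, 10 and 9 counts in the sham libraries, 3, 7 and 4 in those of injury and 9, 8 and 4 in CRC, with Muc1 the most abundant and Cdh1 and Foxa2 at 0. These genes did not move together, and none had enough counts to be tested. On Muc1 mean CPM was 6.75 in sham, 9.34 in injury and 13.2 in CRC. On Krt7, Epcam, Krt18, Cldn3 and Cldn7 it was lower in both other groups than in sham. The 5 endothelial genes held between 3 and 19 counts per library, with Emcn, which encodes a surface protein of endothelial cells, the most abundant. Emcn alone held 2, 3 and 3 counts in the sham libraries, 4, 4 and 4 in those of injury and 8, 13 and 7 in CRC. In CPM all injury and CRC libraries lay above all sham libraries on Emcn. On Pecam1, an adhesion molecule of the same cells, the counts were 9, 0 and 6 in the sham libraries, 2, 1 and 2 in those of injury and 1, 5 and 0 in CRC, and the groups overlapped. Mean CPM was lower in both other groups than in sham on Pecam1, Kdr and Cdh5, and on Tek it was highest in injury and lowest in CRC, so that the 5 genes did not move together. None had enough counts to be tested. The 3 mesothelial genes held between 0 and 4 counts per library, most on Wt1 and with Upk3b at 0. The 5 genes of dividing cells held 48, 43 and 33 counts in the sham libraries, 59, 37 and 51 in those of injury and 37, 40 and 50 in CRC, mostly on Prc1, and the groups overlapped. On Rccd1, the feature opposite Prc1, the counts were 241, 119 and 179 in the sham libraries, 310, 219 and 284 in those of injury and 18, 34 and 25 in CRC, with all CRC libraries below all others. The part of cell composition in the Zmym1 difference was not tested.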

How the data were processed

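Counts per feature were used as deposited by the authors, without normalization, 1 file per library. HISAT2 2.1.0 and StringTie 2.1.1 are named in the submitters' processing notes, and a strand setting is not given in the sources used here. The 5 rows that name no gene held 99.2% of records and stayed out of library sizes and tests. Groups came from the sample labels. Positions were read from GENCODE M21 on GRCm38, in which 53462 features matched by symbol, with 98.4% of the counts, and RefSeq (GRCm38.p6) gave the other gene model of Sfpq. The paper names another version of GENCODE, so exon overlaps and levels per kilobase rest on models that may differ from those counted.

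All 9 libraries were fitted together in R 4.3.3 with edgeR 4.0.16 and limma 3.58.1 (filterByExpr, TMM, robust quasi-likelihood, Benjamini-Hochberg over 3722 features). Tables and plots used Python 3.11.15 with numpy 2.4.6, pandas 2.3.3, scipy 1.17.1 and matplotlib 3.10.9. The fit was tested on simulated data. Log2 CPM used a prior count of 2, and the ratio of summed Sfpq counts an exact conditional binomial interval.

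The pair and the lists of genes were chosen with earlier results of these data known. Named features were the pair, features within 250 kb or overlapping them, tested members of the lists with features opposite to them (of more than 10, those called and the 5 with most counts), the 5 tested features most like Zmym1, and cell type markers. Actb and the opposite pairs given with it were chosen after their values were seen. Some results that this rule would name are not reported here. Alternatives were other scalings (DESeq2's size factors, upper quartile, feature totals, all records), DESeq2 1.42.0, no filter or at least 10 counts in every library, 2 groups alone, a block for replicate number, leaving out each library, group mean ratios without a prior and, added after seeing the data, Sfpq and Gm12940 summed.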

Additional observations from a re-analysis of the deposited data

How the results depend on the processing

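The log2 fold change of Zmym1 lay between 1.49 and 1.80 for injury against sham and between 1.52 and 2.02 for CRC against sham over 19 alternatives each. It moved by more than the spread between mice (0.21) in CRC against sham alone, to 2.02 on feature totals and 1.97 on all records, where the median of all features moved by 0.35 and 0.29. For CRC against injury it lay between -0.06 and 0.25, on either side of 0. With 1 library left out the 3 ranges were 1.49 to 1.80, 1.52 to 1.83 and -0.06 to 0.10. For Sfpq, with 24 counts in all, the log2 ratio of mean CPM lay between -0.89 and 0.42 for injury against sham, -2.08 and -0.47 for CRC against sham and -1.62 and -0.48 for CRC against injury with 1 library left out, and it was 0.28, -0.48 and -0.75 for Sfpq and Gm12940 summed. Scaled without a filter the log2 ratio of Sfpq was -0.41, -1.32 and -0.91, and on features with at least 10 counts in every library -0.46, -1.28 and -0.82. Of the features tested, 16 passed the threshold between injury and sham, 5 with the replicate block, 6 with 2 groups alone and 3 to 154 with 1 library left out, 154 being without sham replicate 1. The count of CRC against sham was 505 to 988 and that of CRC against injury 330 to 708 over 18 alternatives, and 682 and 425 with the replicate block. Calls were 299 higher and 447 lower for CRC against sham, but 730 and 258 on feature totals and 643 and 281 on all records. For CRC against injury they were 190 and 291, but 306 and 198 on feature totals and 334 and 189 on all records, and for injury against sham 10 and 6, but 18 and 2 and 14 and 3. The cause of these shifts was not tested. The labels give same-numbered libraries only a number in common. Over all features tested, deviations of same-numbered libraries from their group means correlated between -0.0964 and 0.0801. Of 9 libraries, 2 correlated best with their own number. A correlation over all features cannot exclude a batch that acts on some of them.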
